A study of Malus domestica with 4 samples.

Results

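The ethylene signal transduction genes described here are 4 apple gene models among the 63514 in the count tables. The closest Arabidopsis gene given in the supplementary annotation of the study is the receptor ethylene response sensor 1 (ERS1) for MDP0000288468, MDP0000242413 and MDP0000752656, and the ethylene responsive element binding factor 2 (ERF2) for MDP0000689946. They were chosen as the genes annotated as ethylene sensors or ethylene response factors that had enough counts at both oxygen levels, and 6 further genes annotated as response factors did not reach them. The part of the annotation used here is ordered by the 0.8ox/0.4ox ratio and holds the genes with the highest ratios, along with genes at 0 in either condition. The genes were thus chosen by their counts in 0.4ox and 0.8ox, and a higher level in 0.8ox than in 0.4ox is given below as a description only.

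RNA came from slices of the cortex of Granny Smith apples, which included inner and outer flesh of fruit picked at commercial ripeness and kept cold. T0 was fruit in normoxia after a short acclimation to the cold, 0.4ox was fruit after 24 days at 0.4 kPa oxygen, and 0.8ox was fruit after 24 days at 0.8 kPa oxygen. A further sample, called shift here, was taken after the oxygen had been raised from 0.4 to 0.8 kPa, and its day is not given in the labels. Each atmosphere was held in a chamber of its own, so oxygen and chamber cannot be told apart, and no fruit kept in normoxia for 24 days was analysed here, so that in a comparison with T0 the time in storage and the oxygen level cannot be told apart. Each condition had 3 libraries by the series' design text, and the count tables hold 1 merged estimated count per condition with its variance. Values per library were not used here, and no replicate could be compared with another. The estimated counts summed to between 4865030 and 9553180 per condition.

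Ethylene is the gaseous hormone that drives the ripening of climacteric fruit such as apple. It is made from ACC by ACC oxidase, an enzyme that consumes oxygen, after ACC synthase has supplied the ACC. In Arabidopsis the receptors, among them ERS1, sit in the membrane of the endoplasmic reticulum and hold the response off until they bind ethylene. The signal then reaches the nucleus, where transcription factors of the ERF family bind GCC-box promoters, and in Arabidopsis ERF2 acts there as an activator.

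The ERF2-type gene MDP0000689946 was barely detected before storage and had its highest level after 24 days at 0.8 kPa. It had 6.20 estimated counts in T0, 15.7 in 0.4ox and 99.1 in 0.8ox, which is 0.648 ± 0.261, 2.88 ± 0.727 and 15.3 ± 1.74 counts per 1e+06 of the condition's total (± SD modelled by Cuffdiff). The intervals of 1 SD around the 3 levels did not overlap. Against T0 the level rose 23.6-fold in 0.8ox (95% interval 10.4 to 53.5), a log2 ratio of 4.56 (SE 0.60) with an adjusted p of 1.06e-12, and 152 of the 29909 genes tested in this comparison had a higher ratio. In 0.4ox the ratio against T0 was 4.44-fold (95% interval 1.75 to 11.3), a log2 ratio of 2.15 (SE 0.68), and its adjusted p of 0.00724 missed the threshold of 0.001. The 0.8ox/0.4ox log2 ratio, which chose the gene, was 2.41 (SE 0.40). The same 0.8ox and 0.4ox values entered the tests against T0, so neither p nor the rank is independent of the choice. In 0.8ox/T0 the gene reached the minimum of 10 counts through 0.8ox alone.

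The receptor gene MDP0000288468 had the most counts of the 4 genes, with 132.5 in T0, 64.0 in 0.4ox and 189.9 in 0.8ox. Scaled to a total of 1e+06 these were 13.9 ± 1.50, 11.8 ± 1.70 and 29.3 ± 2.86, so 0.8ox lay highest and T0 and 0.4ox overlapped within 1 SD. The gene rose 2.12-fold in 0.8ox against T0 (95% interval 1.59 to 2.81), a log2 ratio of 1.08 (SE 0.21) with an adjusted p of 2.90e-06. Without scaling to equal totals its log2 ratio was 0.52 in 0.8ox, which did not pass, and -1.05 in 0.4ox, which did. In 0.4ox the log2 ratio against T0 was -0.24 (SE 0.26), with an adjusted p of 0.517 and an interval of 0.595-fold to 1.21-fold. The ratio of 1.32 (SE 0.25) between 0.8ox and 0.4ox on the log2 scale is a description. It shares its values with the tests against T0, so their p are not independent of the choice.

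The receptor gene MDP0000242413 had 12.7 counts in T0, 7.26 in 0.4ox and 44.9 in 0.8ox, or 1.33 ± 0.373, 1.33 ± 0.495 and 6.94 ± 1.04 per 1e+06. T0 and 0.4ox lay within 1 SD of each other, with a log2 ratio of 0.01 (SE 0.67), whose sign turned without scaling (-0.81), and a wide interval of 0.403-fold to 2.5-fold, while 0.8ox rose 5.23-fold above T0 with an adjusted p of 2.24e-06. The third receptor gene, MDP0000752656, was near the limit of the test, with 8.29 counts in T0, 3.57 in 0.4ox and 12.5 in 0.8ox. Its log2 ratio 0.8ox/T0 was 1.15 (SE 0.65), with an adjusted p of 0.166. It was not tested between 0.4ox and T0, because neither count reached 10. The 0.8ox/0.4ox log2 ratios of these genes were 2.38 (SE 0.58) for MDP0000242413 and 1.55 (SE 0.87) for MDP0000752656. The same values entered the tests against T0, whose p are not independent of the choice. MDP0000752656 reached the minimum of 10 counts in 0.8ox/T0 through 0.8ox alone.

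**Figure D1:**
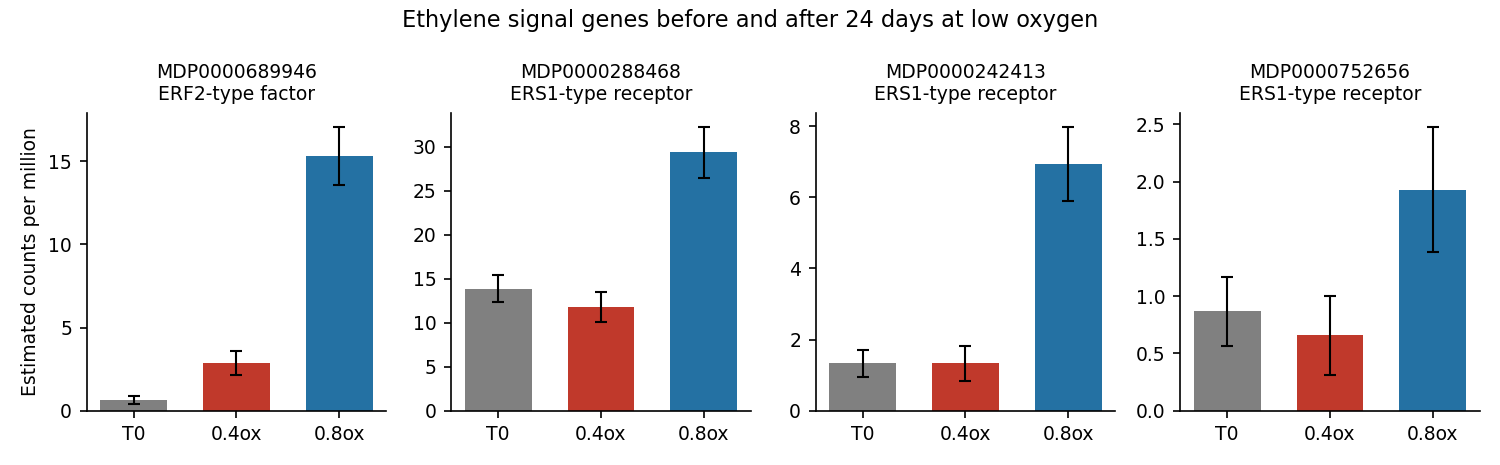
Estimated counts per 1e+06 in T0, 0.4ox and 0.8ox for the 4 ethylene signal genes, with bars from 0 and error bars of 1 SD modelled by Cuffdiff. The ERF2-type gene goes from 0.648 in T0 to 15.3 in 0.8ox, and the receptor gene with the most counts from 13.9 to 29.3. The error bars of T0 and 0.4ox overlap for the 3 receptor genes, of which MDP0000242413 and MDP0000752656 have too few counts to show an absence of change.

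In all, 3 of the 4 genes rose in 0.8ox against T0 and 0 fell, where 6.69% of all genes tested in that comparison rose and 9.94% fell. The median log2 ratio of the 4 genes was 1.77, beside -0.06 over all tested genes. The 0.8ox and 0.4ox libraries both entered the ratio that chose the genes. Neither this count nor the 0.4ox count that follows is therefore independent of the choice. Of the 3 genes tested in 0.4ox against T0, 0 passed in either direction, where 16.9% of all tested genes passed (7.69% higher and 9.18% lower). With an unadjusted p under 0.05 the count was 1, the ERF2-type gene. The share of all tested genes at that level was not computed, but 10107 of 29939 passed the stricter adjusted p under 0.05. The exact test of edgeR, run with dispersions from the same variances, also called 0 of the 3, where it called 5407 of all 29939 tested genes. In a tissue sample a change in RNA per cell and a change in the share of cells that hold it cannot be told apart.

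The count tables differed in how many counts they gave to the receptor genes. The apple genome holds many near-identical copies of genes, and Cuffdiff can divide a read between genes. In the table with the shifted sample, 99.9% of the 0.8ox counts between 0 and 4 were sums of 3 fixed read weights within 0.001, as undivided reads scaled library by library would give, while in the tables with T0 the same held for 26.2% of the 0.8ox counts. The undivided count of the ERF2-type gene in 0.8ox was 112.1, or 113% of its estimated count, where the 75th percentile of all genes with at least 50 counts was 115%. For MDP0000288468 it was 166.5, or 87.7%, below the median of 101% over the same genes. For MDP0000242413 the undivided count was 3.69 beside an estimated 44.9, or 8.22%, and for MDP0000752656 it was 0. The share of genes under 10% was 16.3% among all genes with at least 50 counts, a minimum that MDP0000242413 and MDP0000752656 did not reach. The rise of MDP0000242413 in 0.8ox therefore rests almost wholly on counts that the table of undivided reads does not give to it, and where those reads belong was not tested.

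**Figure D2:**
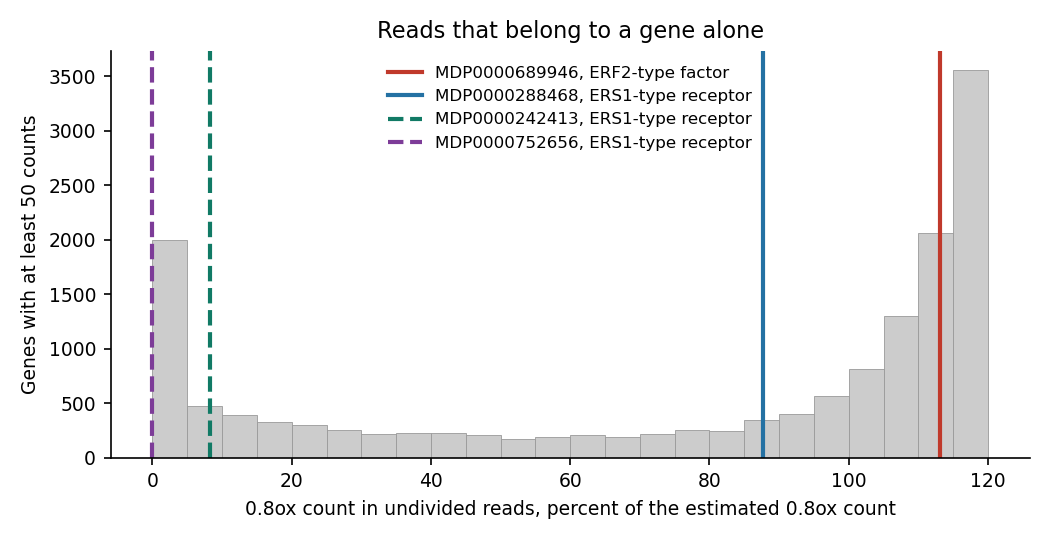
Undivided count of 0.8ox as a percentage of the estimated 0.8ox count, as a histogram over the genes with at least 50 counts, with a line for each ethylene signal gene. The lines of MDP0000242413 and MDP0000752656 lie at 8.22% and 0%, and those of MDP0000288468 and the ERF2-type gene MDP0000689946 at 87.7% and 113%.

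The 3 ERS1-type genes summed, a choice made after the values were seen, had 153.5 counts in T0, 74.9 in 0.4ox and 247.3 in 0.8ox. The undivided count of the sum in 0.8ox was 170.2, or 68.8%, so that summing these genes did not recover the difference between the tables. MDP0000288468 gave 86.3% of the sum in T0, 85.5% in 0.4ox and 76.8% in 0.8ox. The summed log2 ratio was 1.25 (SE 0.18) for 0.8ox/T0 and -0.22 (SE 0.24) for 0.4ox/T0, with the variances added as if the counts were independent. The order of the conditions was that of MDP0000288468 alone.

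The SE of the less abundant genes rested on a variance equal to the count. In T0, 0.4ox and 0.8ox this held for MDP0000242413 and MDP0000752656, and for the ERF2-type gene in T0 and 0.4ox. Counting alone gives this value when each read weighs 1, with nothing added for spread between fruit. The counts were scaled, and in T0 the 987 genes at 0.121, the commonest low count, had a median variance of 0.121. For MDP0000288468 the variance was 1.34 to 1.80 times the count in these conditions. In the table with the shifted sample the 1746 genes at 0.263 counts in 0.8ox, the commonest read weight, had a median variance of 1.0, so there the variance of rare genes was larger than the unit of the counts gives, and an SE for them may be too wide.

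In the shifted sample both genes with undivided reads above the minimum had lower counts than in 0.8ox, and neither difference passed the test. The reference was fruit held at 0.8 kPa in another chamber, not the same fruit before the shift. Chamber, day and oxygen history cannot be told apart in this comparison. The 0.8ox libraries also entered the choice of the genes, so a lower value in the shifted sample is not independent of that choice. The ERF2-type gene had 112.1 counts in 0.8ox and 63.1 after the shift, or 20.9 ± 2.70 and 13.0 ± 1.86 per 1e+06. Its log2 ratio was -0.69 (SE 0.28) with an adjusted p of 0.146, a 0.620-fold level with an interval of 0.425 to 0.906. MDP0000288468 had 166.5 counts in 0.8ox and 109 after the shift, or 31.0 ± 3.74 and 22.4 ± 2.90 per 1e+06. Its log2 ratio was -0.47 (SE 0.26) with an adjusted p of 0.361. The median of all 20669 genes tested in this table was 0.15, and relative to it the ratios were -0.84 for MDP0000689946 and -0.62 for MDP0000288468. MDP0000242413 was under the minimum for the test, with 3.69 counts in 0.8ox and 0.985 after the shift, and MDP0000752656 had 0 in both.

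**Figure D3:**
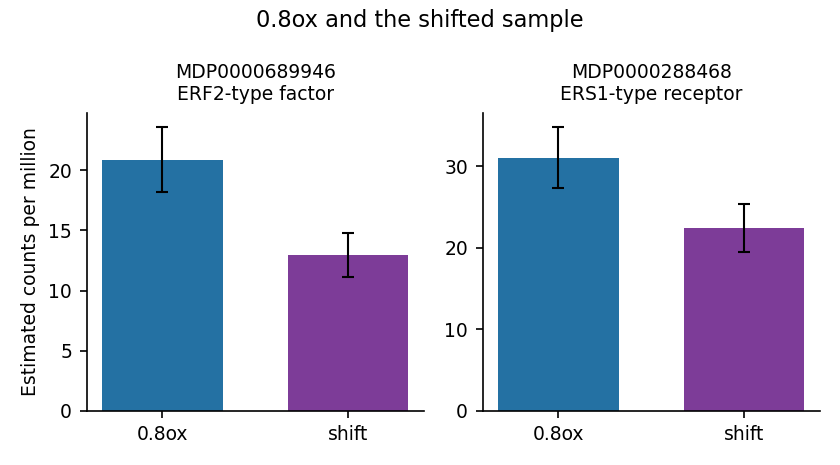
Estimated counts per 1e+06 in 0.8ox and in the shifted sample for the 2 ethylene signal genes with undivided reads above the minimum, with bars from 0 and error bars of 1 SD modelled by Cuffdiff. The ERF2-type gene lies at 20.9 and 13.0 and the receptor gene at 31.0 and 22.4.

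Among all genes tested after the shift 1.96% passed, 319 of them higher (1.54%) and 86 lower (0.416%), and with the median-of-ratios scaling the split was 237 to 123. Of the 2 ethylene signal genes tested 0 passed. The exact test of edgeR called 0 of them and 431 of all 20669 tested genes. At an unadjusted p under 0.05 the count was 1, the ERF2-type gene. The share of all tested genes at that level was not computed, but 1148 of 20669 passed the stricter adjusted p under 0.05. The table with the shifted sample uses the 0.8ox libraries again, so its ratios and those against 0.4ox share them and are given side by side without a comparison.

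The annotated response factors that did not reach the counts were all rare. The 6 genes had between 0 and 5.15 estimated counts in every condition of the first tables. The closest to the limit were MDP0000447570, annotated as ethylene response factor 1, with 0.509 counts in 0.4ox and 5.15 in 0.8ox, and MDP0000805422, annotated as ethylene responsive element binding factor 1, with 1.24 and 5.12. MDP0000752656, just inside, had 3.57 and 12.5.

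Upstream of the receptors, 1 of the ACC oxidase genes rose against T0 at both oxygen levels. By RT-qPCR the study reported this gene rising in fruit stored in normoxia too, with its rise delayed by low oxygen. At 0.4 kPa the study placed the onset after day 24, when the counts here were already above T0. Without stored normoxic fruit here, time in storage and oxygen cannot be told apart in these rises. The counts of MDP0000195885 were 1023 for T0, 14216 for 0.4ox and 41806 for 0.8ox, or 107.1 ± 8.31, 2610 ± 475 and 6460 ± 1177 per 1e+06. The gene rose 24.4-fold in 0.4ox, with an adjusted p of 5.27e-56, and 60.3-fold in 0.8ox, with an adjusted p of 5.87e-92. After the shift its count was 18861 beside 47333 in 0.8ox, with a log2 ratio of -1.19 (SE 0.33) and an adjusted p of 0.0110. A second ACC oxidase, MDP0000251295, is annotated as ethylene-forming enzyme and did not pass against T0, with a log2 ratio of -0.74 (SE 0.37) at 0.4 kPa and 0.59 (SE 0.28) at 0.8 kPa. ACC synthase (MDP0000413933), the enzyme whose product ACC oxidase converts, had between 5.93 and 10.6 counts in T0, 0.4ox and 0.8ox, and its log2 ratio 0.8ox/T0 was 0.21 (SE 0.67). Of the 3 biosynthesis genes 1 rose at each oxygen level and 0 fell, where 16.9% of all tested genes passed in 0.4ox and 16.6% in 0.8ox.

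In Arabidopsis the group VII ethylene response factors are stabilised when oxygen is low, and 6 apple genes of this group were looked up and tested against T0. In 0.4ox 3 of the 6 rose and 1 fell, where 7.69% of all tested genes rose and 9.18% fell, and the median log2 ratio was 1.02. In 0.8ox 4 rose and 1 fell, where 6.69% of all tested genes rose and 9.94% fell, and the median was 0.90. MDP0000848905, which rose at both levels, had 507.2 estimated counts in 0.8ox and an undivided count of 0, and was not tested after the shift. Further genes of the AP2/ERF superfamily were mostly rare, and 7 of the 16 were tested against T0. In 0.4ox 0 of these 7 passed, where 16.9% of all tested genes did. At an unadjusted p under 0.05 the count was 4. The share of all tested genes at that level was not computed, but 10107 of 29939 passed the stricter adjusted p under 0.05. The exact test of edgeR called 1, where it called 5407 of all 29939 tested genes. In 0.8ox 2 rose and 1 fell, where 16.6% of all tested genes passed. The risers in 0.8ox were MDP0000683814, with a log2 ratio of 1.97 (SE 0.31) and an undivided count of 32.7% of the estimated one, and MDP0000453797, with 1.90 (SE 0.35) and an undivided count of 0. The faller was MDP0000258562, annotated as DREB and EAR motif protein 3, with -0.90 (SE 0.19). Apart from the group VII factors, ACC synthase and MDP0000258562, the genes of these lists and of the two-component list come from the same ordered part of the annotation. Their levels in 0.8ox and in 0.4ox are thus not independent of the choice.

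**Figure D4:**
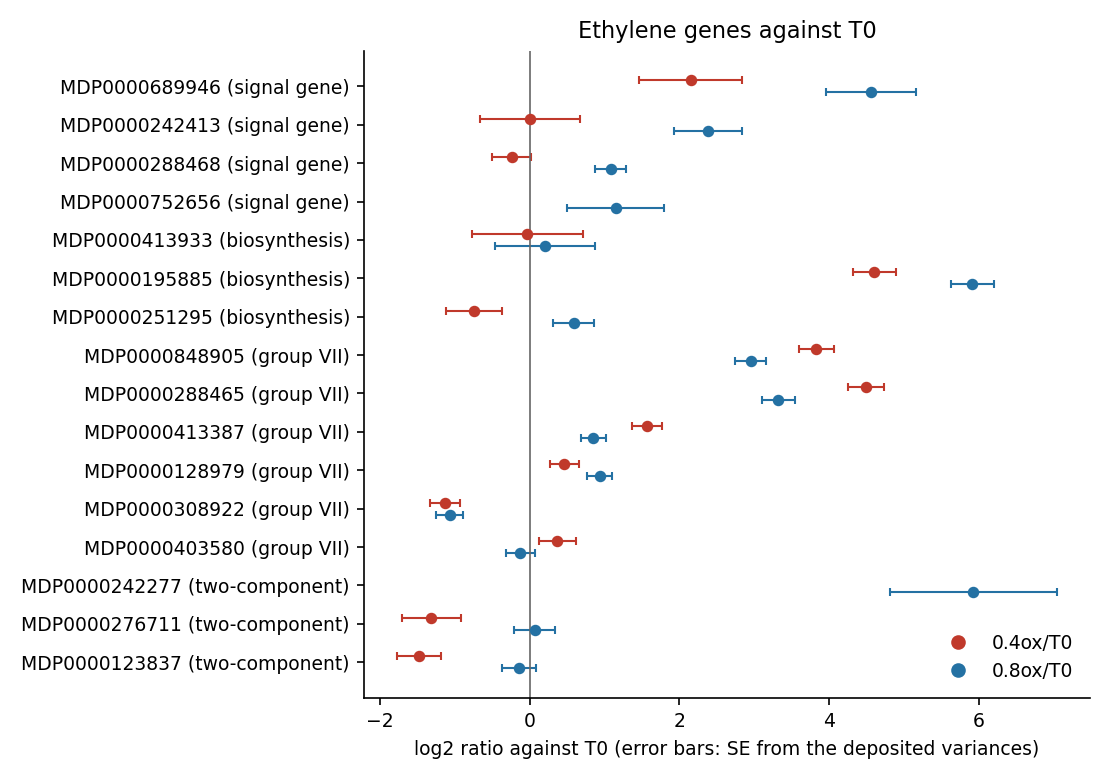
Log2 ratios of 0.4ox/T0 and 0.8ox/T0 for the tested ethylene signal genes, the biosynthesis genes, the group VII factors and the other two-component genes, with the SE from the deposited variances. The signal genes lie between -0.24 and 2.15 in 0.4ox and between 1.08 and 4.56 in 0.8ox, and no 0.4ox point is drawn for MDP0000752656 and MDP0000242277, which were not tested there.

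Ethylene receptors are relatives of the histidine kinases of two-component signalling, and 6 other genes of that kind were looked up, of which 3 were tested in 0.8ox against T0. The histidine kinase MDP0000242277 went from 1.71 counts in T0 to 70.6 in 0.8ox, a ratio of 60.8-fold with an interval of 13.3 to 277, and had 6.70 counts in 0.4ox. It was the only gene of all the lists that passed in shift/0.8ox. Its count was 9.43 in the shifted sample beside 84.2 in 0.8ox, a log2 ratio of -3.02 (SE 0.52) with an adjusted p of 1.15e-06. The shifted fruit came from 0.4 kPa, so this is not a fall within the same fruit. The phosphotransmitter MDP0000123837 passed in 0.4ox against T0, with a log2 ratio of -1.47 (SE 0.29), and had -0.14 (SE 0.22) in 0.8ox. The histidine kinase MDP0000276711 passed in no comparison, with -1.31 (SE 0.39) in 0.4ox and 0.07 (SE 0.27) in 0.8ox against T0. Of the genes tested, 1 of 2 fell in 0.4ox, where 9.18% of all tested genes fell. In 0.8ox 1 of 3 rose, where 6.69% rose, and in shift/0.8ox 1 of 3 was lower, where 0.416% were. The gene was MDP0000242277 both times, and in both comparisons it reached the minimum of 10 counts through 0.8ox alone. This list comes from the part of the annotation ordered by the 0.8ox/0.4ox ratio, so these counts and p are not independent of the choice.

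The genes most like the ethylene signal genes were sought over the log2 ratios 0.4ox/T0, 0.8ox/T0 and shift/0.8ox among 11896 genes with at least 50 counts, and the 2 genes with undivided reads above the minimum could be compared. Nearest to MDP0000288468 were MDP0000203897 and MDP0000150382, both annotated as UDP-glucosyltransferase 74F2, at distances of 0.126 and 0.135 log2 units, and MDP0000205358, annotated as phytochrome interacting factor 3, at 0.230. In 0.8ox MDP0000203897 had 455.6 estimated counts beside an undivided count of 146.3. Whether it shares reads with MDP0000150382 was not tested, so the 2 may not be separate likenesses. Nearest to the ERF2-type gene MDP0000689946 were MDP0000320719, annotated as nuclear factor Y subunit B8, at 0.922, MDP0000132855 at 0.959 and MDP0000788170, annotated as a pathogenesis-related protein, at 1.11. These likenesses rest on 4 conditions and the same libraries.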

How the data were processed

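RNA of apple cortex was sequenced as single reads of an Illumina instrument. The authors cleaned the reads with ERNE, mapped them onto the first apple genome release using TopHat2 (index by Bowtie2), with an option meant to drop reads that map to several places, and counted with Cuffdiff, whose versions are not given in the sources used here. Per the file headers each deposited table gives an estimated count of every gene and the variance that Cuffdiff modelled, 1 value per condition. The estimated counts summed to 9553180 for T0, 5445600 for 0.4ox and 6471120 for 0.8ox, and in the separately made table with the shifted sample to 5363830 in 0.8ox and 4865030 after the shift, so levels were compared within a table.

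Within each table both conditions were scaled to equal totals, and each log2 ratio was compared with its SE (delta method, deposited variances as they stand) in a two-sided normal test. Benjamini-Hochberg adjustment ran over every gene above 0 in both conditions whose larger count was 10 or more. The threshold was the adjusted p of 0.001 of the study. The test was checked on counts simulated with the deposited variances, which cannot show whether those variances miss spread between fruit. A quasi-likelihood test of edgeR needs values per library and was not run. Levels were not compared between genes, since gene lengths were not used. No marker of cortex was at hand, so the tissue label was not checked. Named genes were the 4 genes, lists of related genes from the study's text and supplementary annotation, and the 3 nearest genes by pattern. The genes and lists were chosen with earlier results of these data known. Python 3.11.15, numpy 2.4.6, scipy 1.17.1 and edgeR 4.0.16 were used.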

Additional observations from a re-analysis of the deposited data

How the results depend on the processing

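Unscaled, TMM and median-of-ratios counts, no minimum or 50 counts, the variance divided by the 3 libraries, an adjusted p under 0.05 and the exact test of edgeR were tried. Of 71 tested values of the 4 genes under these settings, the 3 summed ERS1 loci included (a choice made after seeing the data), 64 kept their direction and side of the threshold. The log2 ratio of MDP0000242413 in 0.4ox/T0, 0.01 and not called, turned to -0.81 without scaling and -0.081 with the exact test of edgeR, and neither passed. Without scaling, MDP0000288468 passed in 0.4ox/T0 with -1.05 and no longer passed in 0.8ox/T0 with 0.52. The ERF2-type gene passed in 0.4ox/T0 (2.15) with the divided variance or an adjusted p under 0.05, and in shift/0.8ox (-0.69) with the divided variance. The 5052 genes called in 0.4ox/T0 became 11388 without scaling (801 higher and 10587 lower, beside 2303 and 2749), 12127 with divided variances and 10107 at an adjusted p under 0.05. The 4975 in 0.8ox/T0 became 8742 (790 higher and 7952 lower, beside 2001 and 2974), 11749 and 9739, and the 405 in shift/0.8ox became 2501 with divided variances and 1148 at an adjusted p under 0.05. Under the minimum of 50, MDP0000242413 and the ERF2-type gene in 0.4ox/T0, and other genes with fewer counts, gave no value. No paired analysis was possible because the tables hold 1 merged value per condition and no replicate numbers, and for the same reason no replicate was left out. Among all tested genes none passed with a log2 ratio closer to 0 than 0.72 in 0.4ox/T0, 0.61 in 0.8ox/T0 or 0.95 in shift/0.8ox.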
